A study of Mus musculus with 15 samples.

Results

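The 46 genes described here encode proteins that build the mitotic spindle, attach chromosomes to it, condense and separate the chromosomes, and divide the cell. They were taken by symbol from a table of 24264 mouse genes, and all 46 symbols were found in it. All 46 were also among the 13745 genes tested, which reached at least 1 RPKM (a read density, scaled to the length of the gene model and the mapped reads of the library) in at least 3 libraries. The table holds 15 RNA-seq libraries of brain tissue at age E12.5. There are 3 libraries each of dorsal midbrain, alar plate, ventral midbrain, forebrain and hindbrain, numbered below as in their titles. All embryos were of the C57bl/6 strain and expressed GFP from the promoter of Th, the gene for tyrosine hydroxylase, so no group lacks that transgene. The tissue was cut out under a microscope, the labels name no cell sort, and each library was made from 200 ng of Trizol-extracted RNA. The labels do not say whether the libraries of a region came from separate embryos or pools, so p-values measure only the spread between these libraries, which may be technical. The site of origin of the alar plate samples is not given. The alar plate is the dorsal part of the side wall of the neural tube.

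At this stage the wall of the neural tube holds dividing progenitors along the ventricle and newly born neurons that have left the cell cycle on the outer side. Mitosis is driven by the kinase CDK1 bound to cyclin B, which is switched off when the anaphase-promoting complex (APC/C) marks cyclin B for destruction. Most genes of this group are transcribed late in the cell cycle, in G2 and M phase, and are low in cells that have stopped dividing. Many of their promoters are known to hold CCAAT boxes, bound by the factor NF-Y, and a cell cycle homology region (CHR) with the core TTTGAA, in some genes TTTAAA, bound by complexes of the DREAM and MYB-MuvB type.

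Promoter sequences are shown first because members of different role are compared below, and their promoters share letters that the choice of the genes did not use. Of the 46 members, 40 matched an entry of the RefSeq promoter table (build GRCm38.p6). That build differs from the mm9 build of the expression table, and the 2 were joined by symbol only. Windows ran from 250 bases before to 50 bases after the start of the gene, and both strands were searched. For the 3 members with 2 entries, a match in either counted. At least 1 CCAAT stood in the window of 30 of the 40 members (75%), against 41.1% of the 27025 genes in the table. At least 2 CCAAT were present in 21 members (52.5%), against 13.3% of all genes. The core TTTGAA was present in 32 members (80%), against 20.2% of all genes, and one of both cores in 35 (87.5%), against 30.6%. At least 2 CCAAT together with one of both cores occurred in 20 members (50%), against 4.12% of all genes. These shares are descriptions, a match is no proof of a bound site, and a window without a match says only that these letters are not in it.

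Shown here are the 200 bases before the start of 8 members, 5′ to 3′ on the strand of the gene, with the CCAAT boxes and both CHR cores in capitals. Where such letters are read on the other strand, they appear as ATTGG (box) or TTCAAA (core). The first 6 were picked for their role (the kinase, its cyclins, the APC/C activator and 2 chromosome proteins). Bub3 is shown because its level varied least between libraries, and Nuf2 because its window held none of the letters searched. The choice was made after values and matches were seen.
Ccnb1: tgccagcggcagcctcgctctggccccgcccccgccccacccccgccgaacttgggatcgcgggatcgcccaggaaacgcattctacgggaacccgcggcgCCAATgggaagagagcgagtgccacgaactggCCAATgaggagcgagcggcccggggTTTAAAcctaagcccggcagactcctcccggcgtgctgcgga
Ccnb2: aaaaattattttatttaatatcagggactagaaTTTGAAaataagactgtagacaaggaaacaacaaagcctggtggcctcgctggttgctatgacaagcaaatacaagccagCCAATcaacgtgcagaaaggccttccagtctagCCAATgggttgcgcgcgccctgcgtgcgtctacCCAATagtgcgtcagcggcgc
Cdk1: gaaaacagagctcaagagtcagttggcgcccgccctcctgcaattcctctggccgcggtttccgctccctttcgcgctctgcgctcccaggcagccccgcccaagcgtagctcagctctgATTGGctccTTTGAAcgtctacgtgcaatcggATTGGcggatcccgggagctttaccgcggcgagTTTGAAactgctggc
Cdc20: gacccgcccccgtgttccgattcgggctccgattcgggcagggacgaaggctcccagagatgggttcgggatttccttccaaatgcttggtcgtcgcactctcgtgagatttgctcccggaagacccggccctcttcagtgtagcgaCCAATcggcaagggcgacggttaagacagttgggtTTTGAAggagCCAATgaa
Top2a: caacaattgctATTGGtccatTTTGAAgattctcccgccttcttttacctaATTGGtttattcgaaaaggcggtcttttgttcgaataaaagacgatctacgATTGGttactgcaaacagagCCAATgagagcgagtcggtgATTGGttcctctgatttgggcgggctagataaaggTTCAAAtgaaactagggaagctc
Mki67: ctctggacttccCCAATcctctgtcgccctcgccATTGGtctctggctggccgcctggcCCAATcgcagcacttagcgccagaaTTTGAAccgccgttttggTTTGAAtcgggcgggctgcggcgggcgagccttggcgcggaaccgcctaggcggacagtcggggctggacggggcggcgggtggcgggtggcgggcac
Bub3: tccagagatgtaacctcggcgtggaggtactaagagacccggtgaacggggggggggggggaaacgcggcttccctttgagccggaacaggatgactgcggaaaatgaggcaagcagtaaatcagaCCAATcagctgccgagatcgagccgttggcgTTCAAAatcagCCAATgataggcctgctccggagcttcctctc
Nuf2: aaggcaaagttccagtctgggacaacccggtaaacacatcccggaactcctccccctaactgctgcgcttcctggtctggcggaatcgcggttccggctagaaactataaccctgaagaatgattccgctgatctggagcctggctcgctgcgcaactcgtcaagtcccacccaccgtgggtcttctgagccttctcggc

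In build GRCm38.p6 the stretch of Ccnb1 lies at chr13:100786487-100786686, Ccnb2 at chr9:70421555-70421754, Cdk1 at chr10:69352913-69353112, Cdc20 at chr4:118437344-118437543, Top2a at chr11:99024190-99024389, Mki67 at chr7:135716380-135716579 and Nuf2 at chr1:169531465-169531664, all on the minus strand, and Bub3 at chr7:131560170-131560369 on the plus strand. The starts of the pair of CCAAT boxes were 32 bases apart in Ccnb1 and in Cdk1, and the 3 boxes of Ccnb2 were spaced by 33 and 33 bases. In Cdc20 the distance was 45 bases and in Bub3 it was 42 bases. Top2a held 5 boxes in the stretch shown and Mki67 held 3. The stretches of Bub3 and Cdk1 held both kinds of letters, while the ratio of the highest to the lowest library was 1.9 for Bub3 and 8.62 for Cdk1.

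Before the results, some libraries need a remark on their labels or their values, from region markers chosen after their values had been seen. Th and Foxa2, markers of the floor of the midbrain, were high in all ventral midbrain libraries (68.9 to 81.7 and 70.3 to 75.5 RPKM). Pax7 was at 36.8, 40.4 and 18.3 RPKM in the dorsal midbrain and at 13.5, 19.6 and 4.22 in the alar plate. It was at 15.5, 4.35 and 2.39 in the hindbrain, 0.535, 8.46 and 3.16 in the forebrain and at most 0.312 in the ventral midbrain. Otx2, another region marker, was at 156, 161 and 80.1 RPKM in the dorsal midbrain and at 82.8, 81.1 and 59.1 in the alar plate. Dorsal midbrain 3 thus stood near alar plate 1 and 2 for Otx2 and below alar plate 2 for Pax7. En1 and Th, at low levels in both regions, went another way. En1 was at 0.456, 0.799 and 0.49 RPKM in the dorsal midbrain and at 4.43, 2.79 and 0.405 in the alar plate. Th was at 0.605, 0.571 and 0.793 RPKM in the dorsal midbrain and at 2.96, 1.64 and 2.21 in the alar plate. For both genes dorsal midbrain 3 stood near dorsal midbrain 1 and 2. Foxa2 was at 0.137 RPKM in forebrain 1 and at 16.2 and 20.6 in forebrain 2 and 3. Hoxa2, a hindbrain gene, was at 0.107 RPKM in hindbrain 1 and at 11.1 and 6.24 in hindbrain 2 and 3. Forebrain 1 and hindbrain 1 were also the libraries of their regions with the highest levels of the mitosis genes. Alar plate 3 carried a trend with gene length, described below. Reads recovered from the RPKM values ran from 8678889 to 13116984 per library, and those of a single member in a single library from 39 to 8931.

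In the expression data the members were highest in the dorsal midbrain. The mean of the 3 dorsal midbrain libraries exceeded the mean of every other region for 46 of 46 members, and the alar plate mean came second for 46 of 46. For Bub3 that second place rested on alar plate 3, as alar plate 1 and 2 were both below the hindbrain mean. The lowest mean was in the hindbrain for 36 members, in the forebrain for 7 and in the ventral midbrain for 3. The difference of the dorsal midbrain from the mean of the other 4 regions, on the log2(RPKM + 1) scale, had a median of 1.36 over the members, with a range from 0.25 for Bub3 to 1.73 for Top2a, against a median of 0.05 over all genes tested. With limma and Benjamini-Hochberg adjustment over all genes tested, 45 members were called higher at an adjusted p under 0.05, where 18.2% of all genes tested were, and none lower, where 13.8% were. The member not called was Bub3, at an adjusted p of 0.172. The calls rested on few libraries. Without dorsal midbrain 1 the count was 5, where 4.30% of all genes tested were called higher, and the median over the members was 1.17. Without dorsal midbrain 2 it was 17, where 5.95% of all genes were, and the median was 1.23. All 46 differences stayed above 0 in both.

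**Figure D1:**
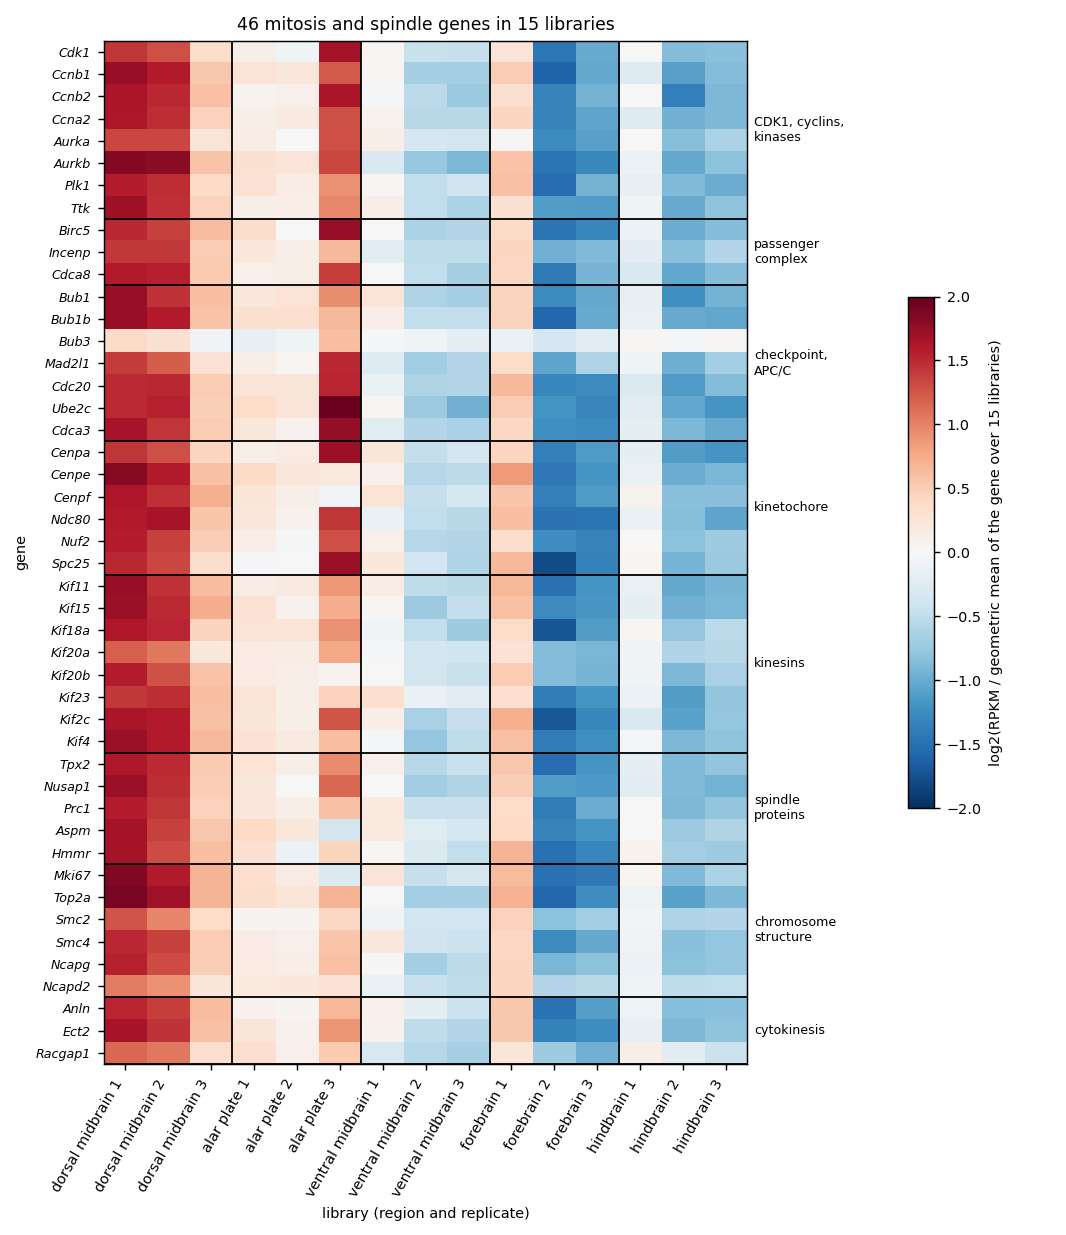
Level of each of the 46 members (rows, grouped by role) in each of the 15 libraries (columns, grouped by region), as the log2 ratio of its RPKM to the geometric mean of that gene over the 15 libraries, red for higher and blue for lower. Dorsal midbrain 1 and 2 stand highest for most genes and forebrain 2 and 3 lowest, and the row of Bub3 is nearly even.

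The 15 libraries fell into a broad range of levels within regions as well as between them. The median RPKM over the 46 members was 34.2, 30.7 and 16.2 in dorsal midbrain 1, 2 and 3, and 13.4, 12.9 and 22.9 in alar plate 1, 2 and 3. In the ventral midbrain it was 12.2, 8.21 and 8.24, for the forebrain libraries 17.2, 4.24 and 5.57, and for those of the hindbrain 10.9, 6 and 6.42. Dorsal midbrain 3 and forebrain 1 were thus close to each other, with a median ratio of 1.04 over the members, and the forebrain and dorsal midbrain groups overlapped for part of the members. The highest library was dorsal midbrain 1 for 34 members, alar plate 3 for 10 and dorsal midbrain 2 for 2. The lowest was forebrain 2 for 37 members, forebrain 3 for 8 and hindbrain 2 for 1. In bulk tissue, fewer dividing cells and less RNA of these genes per dividing cell cannot be told apart.

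**Figure D2:**
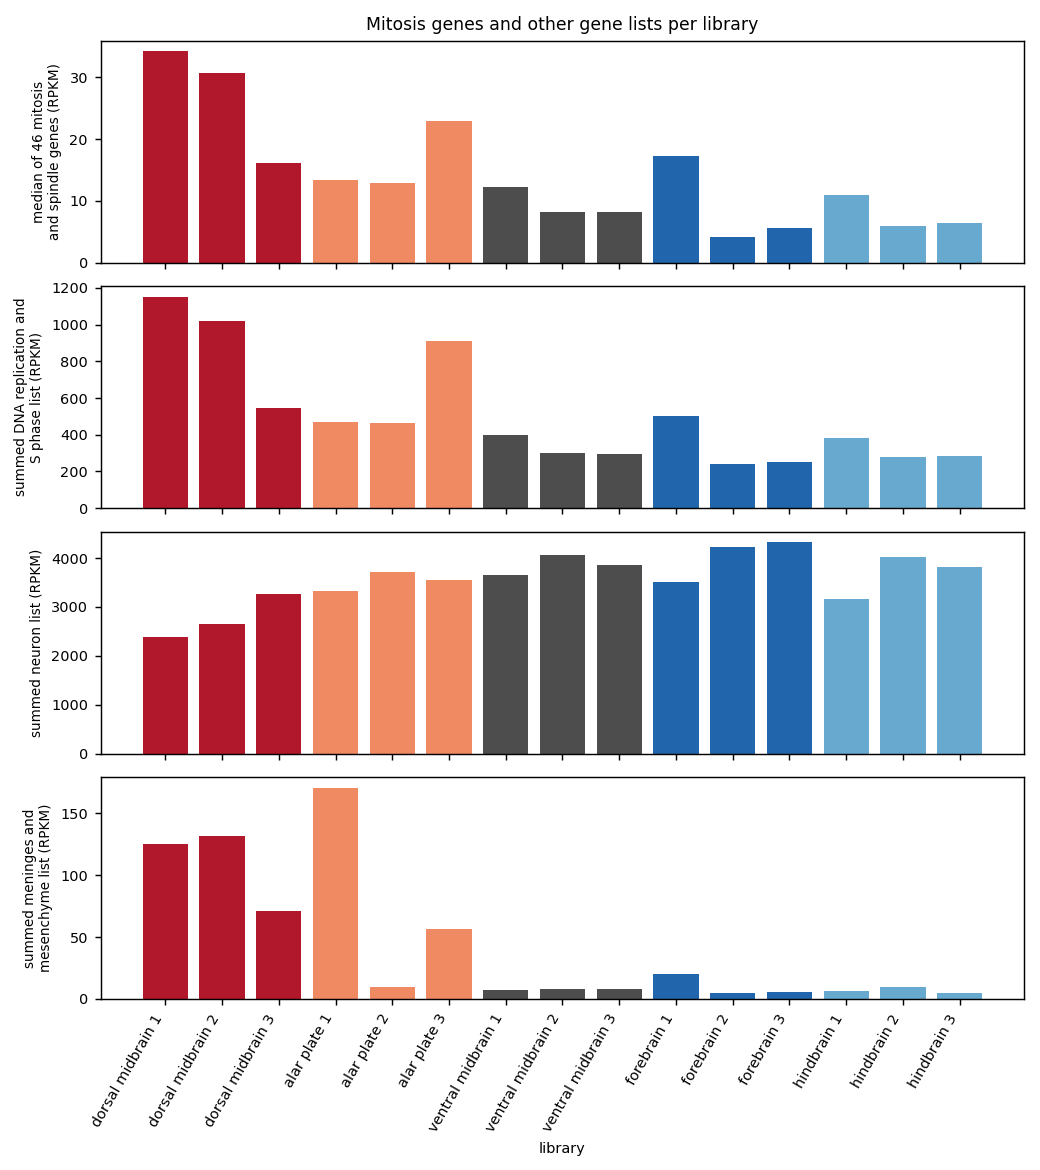
Bars per library, coloured by region, for the median RPKM of the 46 members and the summed RPKM of the gene lists of DNA replication and S phase, of neurons, and of meninges and mesenchyme, each panel with its own axis from 0. The member medians run from 4.24 in forebrain 2 to 34.2 in dorsal midbrain 1, the replication list is highest and lowest in the same libraries, and the neuron list is lowest in dorsal midbrain 1 at 2378.

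Across all 5 regions, 44 of the 46 members differed by limma's F-test at an adjusted p under 0.05, against 33.7% of all genes tested. Those not called were Bub3, at an adjusted p of 0.241, and Spc25, at 0.0923. This count was 2 without dorsal midbrain 1 (17.2% of all genes tested), 2 without dorsal midbrain 2 (17.3%) and 28 without hindbrain 3 (23.6%). In the first 2 of these settings the members' share was below that of all genes. The other comparisons of a single region with the mean of the rest called no member with limma. The alar plate was above the rest for 46 of 46 members, with a median difference of 0.46, and 1.24% of all genes tested were called higher and 3.41% lower. There 1 member was higher at an unadjusted p under 0.05, against 13.9% of all genes. Without alar plate 3, which carried the trend with gene length, the median difference of the alar plate was 0.22. The ventral midbrain was below the rest for 46 of 46, with a median of -0.39, and 7.43% of all genes were called higher and 3.16% lower. At an unadjusted p under 0.05, 2 members were lower, against 9.96% of all genes. The forebrain was below the rest for 46 of 46, with a median of -0.75, and 0.618% of all genes were called higher and 2.30% lower. Here 27 members were lower at an unadjusted p under 0.05, against 13.0% of all genes. The hindbrain was below the rest for 45 of 46, with a median of -0.69, and 4.03% of all genes were called higher and 2.27% lower. At that unadjusted threshold 28 members were lower, against 12.6% of all genes. Without forebrain 1, 37 members were called lower in the forebrain, where 4.17% of all genes were, while leaving out hindbrain 1, or any other library, gave no call in the hindbrain. With single libraries left out, 1.61% to 7.72% of all genes were called higher in the hindbrain and 0.708% to 6.92% lower. These comparisons are not independent, since each uses the same 15 libraries.

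The dorsal midbrain was also compared with single regions. Against the ventral midbrain 41 members were called higher (12.4% of all genes tested), with a median difference of 1.38 on the log2(RPKM + 1) scale. The members not called there were Cdk1, Aurka, Bub3, Cenpa and Spc25. Against the forebrain 45 members were called higher (16.3% of all genes), with a median of 1.69, and against the hindbrain 44 (17.4%), with a median of 1.67. Against the alar plate none was called by limma (1.26% of all genes higher and 0.415% lower). There the median was 0.70, all 46 differences were above 0 and 14 members were higher at an unadjusted p under 0.05, against 13.7% of all genes. The order of dorsal midbrain over alar plate therefore did not exceed the spread of the libraries in the fit of all 15. With alar plate 3, dorsal midbrain 3 and forebrain 1 left out together, libraries that stand apart from the rest of their region in the members as well, 46 members were called higher than in the alar plate, where 21.5% of all genes were. In that setting 46 were called lower in the forebrain than in the rest (24.8% of all genes) and 41 lower in the hindbrain (19.4%). By member medians, dorsal midbrain 3 was the lowest library of its region, and alar plate 3 and forebrain 1 the highest of theirs. Leaving them out narrows the spread and moves dorsal midbrain and alar plate apart, and likewise forebrain and rest. These counts thus follow in part from the choice and are no separate support. The count against the ventral midbrain was 2 without dorsal midbrain 1 (4.37% of all genes called higher), 5 without dorsal midbrain 2 (4.72%), 6 without ventral midbrain 2 (5.49%) and 8 without ventral midbrain 3 (5.43%). Against the forebrain it was 3 without dorsal midbrain 1 (3.76%), 14 without dorsal midbrain 2 (5.06%), 12 without forebrain 2 (5.67%) and 11 without forebrain 3 (5.18%). Against the hindbrain it was 24 without dorsal midbrain 1 (7.64%), 28 without dorsal midbrain 2 (8.63%) and 29 without hindbrain 2 (9.69%). All 46 differences of these 3 comparisons were above 0 in each of these settings. The 4 comparisons share the dorsal midbrain libraries.

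**Figure D3:**
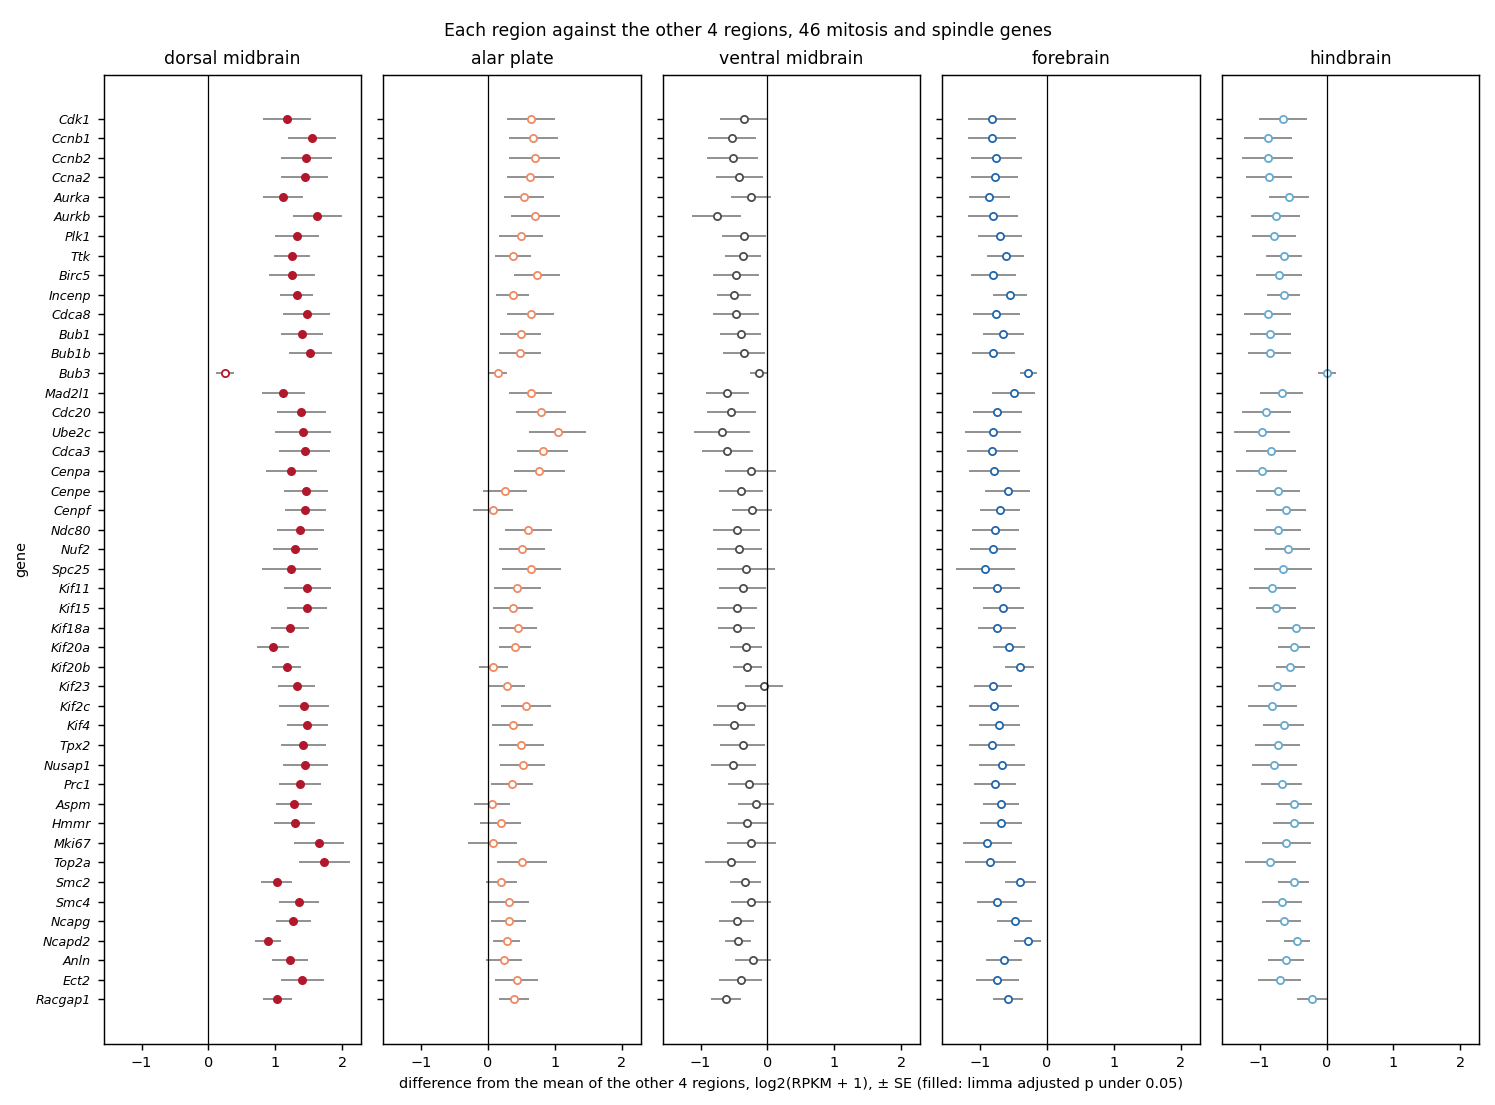
Difference of each region from the mean of the other 4 on the log2(RPKM + 1) scale, for each of the 46 members, with bars of 1 SE from limma, filled points for an adjusted p under 0.05 and open points for the rest. Only the dorsal midbrain panel has filled points, for 45 members, and its open point is Bub3 at 0.25.

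The libraries of the regions overlapped for many members. All 3 dorsal midbrain libraries lay above all 12 others for 6 members (Cenpf, Kif20b, Kif23, Kif4, Aspm and Mki67), where 5.91% of all genes tested did so. With alar plate 3 left out, an alternative added after the data were seen, this held for 29 members (11.2% of all genes). Against the 3 ventral midbrain libraries alone, the dorsal midbrain libraries did not overlap for 45 members (32.1% of all genes higher in this way), and against the hindbrain for 45 (33.6%). Against the forebrain this held for 30 (28.9%) and against the alar plate for 9 (12.9%). Bub3 was the member that overlapped with the ventral midbrain and the hindbrain.

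The first role group holds CDK1, the mitotic cyclins and the kinases that work beside them. All 8 members were called higher in the dorsal midbrain, with differences from 1.11 to 1.63 and a median of 1.38. Cdk1, the kinase that starts mitosis, was at 29.9, 27.2 and 14.2 RPKM in the dorsal midbrain, 12, 10.4 and 35 in the alar plate, 11.4, 8.13 and 8.1 in the ventral midbrain, 13.2, 4.06 and 5.51 in the forebrain, and at 11.2, 6.09 and 6.25 in the hindbrain. Alar plate 3 was the highest of the 15 libraries, and leaving that library aside the dorsal midbrain lay above all others. The difference of Cdk1 was 1.18 (SE 0.36), with a limma adjusted p of 0.0258. Ccnb1 encodes cyclin B1, the main partner of CDK1 in mitosis. It was at 64.3, 57.5 and 27.9 RPKM in the dorsal midbrain, 23.2, 22.4 and 44.8 in the alar plate, 19.5, 12.1 and 12 in the ventral midbrain, 27.1, 6.3 and 9.44 in the forebrain, and at 16, 9.05 and 10.5 in the hindbrain. Dorsal midbrain 3 was below alar plate 3 and just above forebrain 1. The difference was 1.55 (SE 0.36), with a limma adjusted p of 0.00772. Ccna2, whose product cyclin A2 acts in S phase and on entry into mitosis, was at 86.1, 78.5 and 38.5 RPKM in the dorsal midbrain, 30.6, 31.7 and 67.7 in the alar plate, 29.6, 19.2 and 19.1 in the ventral midbrain, 38, 11.1 and 13.5 in the forebrain, and at 23.4, 14.4 and 15 in the hindbrain. It had the highest mean of the group, 34.4 RPKM over 15 libraries, and showed the same order of libraries within the dorsal midbrain and forebrain as Ccnb1. Aurkb, the kinase of the chromosomal passenger complex, which corrects faulty attachments of chromosomes to the spindle, was at 38.4, 37.7 and 16 RPKM in the dorsal midbrain, 13.3, 12.9 and 27.1 in the alar plate, 8.68, 6.39 and 5.78 in the ventral midbrain, 15.9, 3.93 and 4.4 in the forebrain, and at 9.94, 5.27 and 6.07 in the hindbrain. Dorsal midbrain 3 and forebrain 1 were nearly level there, while dorsal midbrain 1 and 2 exceeded all other libraries. The difference of Aurkb was the largest of the group, 1.63 (SE 0.37), with a limma adjusted p of 0.00625. Ccnb2 (cyclin B2), Plk1 and Aurka (kinases of centrosomes and spindle poles) and Ttk (the checkpoint kinase MPS1) had differences of 1.46, 1.33, 1.11 and 1.25.

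The other members of the chromosomal passenger complex were likewise all called, 3 of 3, with a median difference of 1.32. Incenp, the scaffold that ties Aurora B to the centromere, was at 41.5, 41.5 and 22.2 RPKM in the dorsal midbrain, 18, 16.9 and 24.3 in the alar plate, 13.4, 10.9 and 10.9 in the ventral midbrain, 21, 7.99 and 8.44 in the forebrain, and at 13.4, 8.72 and 10.4 in the hindbrain. Alar plate 3 was the highest library outside the dorsal midbrain and exceeded dorsal midbrain 3. The difference of Incenp was 1.32 (SE 0.25), with a limma adjusted p of 0.00312. Cdca8 encodes borealin, which helps to place the complex. It was at 66.8, 65.1 and 31.9 RPKM in the dorsal midbrain, 23.9, 24 and 58 in the alar plate, 22.1, 15.8 and 14 in the ventral midbrain, 29.5, 8.32 and 11.6 in the forebrain, and at 18, 10.8 and 12.2 in the hindbrain. Only dorsal midbrain 1 and 2 were above alar plate 3, and dorsal midbrain 3 stood near forebrain 1. Birc5, the gene of survivin, had a difference of 1.25.

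**Figure D4:**
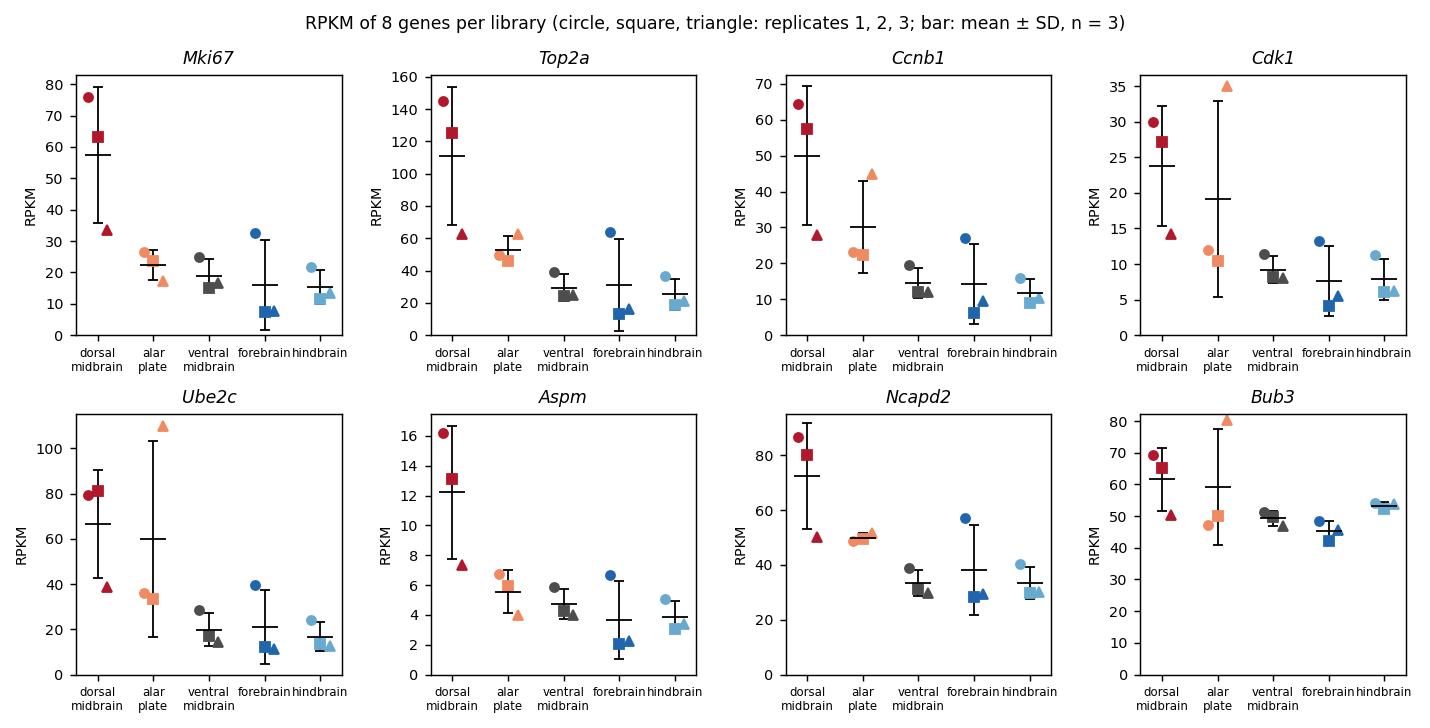
RPKM of 8 members in each of the 15 libraries by region, with circles, squares and triangles for replicates 1, 2 and 3 and bars for the mean and SD of 3 libraries, on axes from 0. Dorsal midbrain 3 lies below dorsal midbrain 1 and 2 in all 8 panels, and alar plate 3 is the highest library of all for Cdk1, Ube2c and Bub3.

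Of the 7 genes grouped here under the spindle checkpoint and the APC/C, 6 were called higher in the dorsal midbrain, with a median difference of 1.40. Bub3, a WD-repeat protein that brings checkpoint kinases to unattached kinetochores, was at 69.2, 65.3 and 50.2 RPKM in the dorsal midbrain, 47.3, 50 and 80.3 in the alar plate, 51.4, 49.8 and 46.8 in the ventral midbrain, 48.5, 42.2 and 45.5 in the forebrain, and at 54.1, 52.1 and 53.7 in the hindbrain. The ratio of its highest to its lowest library was 1.9, against a median of 8 over the members. The dorsal midbrain overlapped with the alar plate, ventral midbrain and hindbrain but not with the forebrain. Its difference was 0.25 (SE 0.13), with a limma adjusted p of 0.172, so no difference beyond the spread was detected. Without alar plate 3, Bub3 was called as well, at a limma adjusted p of 0.00718. Bub3 was also the best-expressed member in the ventral midbrain, forebrain and hindbrain libraries other than forebrain 1, where Top2a was higher. Ube2c encodes the ubiquitin-conjugating enzyme that works with the APC/C and is the member with the shortest gene model, 1.02 kb. It was at 79.2, 81.1 and 38.9 RPKM in the dorsal midbrain, 36.2, 33.5 and 110 in the alar plate, 28.4, 16.9 and 14.4 in the ventral midbrain, 39.8, 12.2 and 11.2 in the forebrain, and at 24.3, 13.7 and 12.4 in the hindbrain. Alar plate 3 was higher than every dorsal midbrain library. The difference was 1.41 (SE 0.42), with a limma adjusted p of 0.022. Cdc20 (the activator of the APC/C), Bub1 and Bub1b (checkpoint kinase and its relative BubR1), Mad2l1 (the checkpoint protein MAD2) and Cdca3 had differences of 1.39, 1.40, 1.52, 1.12 and 1.44. Their range was far from that of Bub3, but no test of Bub3 against the other members was made.

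All 6 centromere and kinetochore genes were called, with a median difference of 1.33. Cenpa, the histone H3 variant that marks centromeres, was at 42, 37.7 and 21 RPKM in the dorsal midbrain, 16.8, 17.3 and 50.6 in the alar plate, 18.4, 11.2 and 12 in the ventral midbrain, 21, 6 and 7.11 in the forebrain, and at 13.6, 7.13 and 6.88 in the hindbrain. Alar plate 3 was the highest library, and forebrain 1 and dorsal midbrain 3 were both at 21 RPKM. The limma adjusted p of Cenpa was 0.0266. Cenpf, a large coiled-coil kinetochore protein, is the member with the longest gene model, 11.05 kb. It was at 26.6, 24 and 14.3 RPKM in the dorsal midbrain, 10.3, 9.38 and 8.33 in the alar plate, 10.5, 6.31 and 6.79 in the ventral midbrain, 12.7, 3.38 and 3.97 in the forebrain, and at 9.16, 4.85 and 4.87 in the hindbrain. All 3 dorsal midbrain libraries stood above the other 12, and alar plate 3 was the lowest of its region. The difference of Cenpf was 1.45 (SE 0.30), with a limma adjusted p of 0.00458. Spc25, a subunit of the NDC80 complex that grips microtubules, was at 38.2, 34.1 and 17.3 RPKM in the dorsal midbrain, 13.3, 13.4 and 44.6 in the alar plate, 15.7, 10.4 and 8.89 in the ventral midbrain, 21.2, 3.92 and 5.29 in the forebrain, and at 13.8, 7.05 and 8.05 in the hindbrain. Its highest library was alar plate 3, and forebrain 1 was above dorsal midbrain 3. The difference was 1.24 (SE 0.44), with a limma adjusted p of 0.0476, the closest to the threshold among the members called. That call was lost in 14 alternatives, with limma adjusted p-values up to 0.229, among them a pseudocount of 0.1 RPKM (0.0508) and the table without a filter (0.0674). Cenpe (a kinetochore kinesin) and the other NDC80 subunits Ndc80 and Nuf2 had differences of 1.46, 1.37 and 1.30.

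The 8 kinesins, motor proteins that push spindle poles apart, move chromosomes or organise the midzone, were all called, with a median of 1.37. Kif11, the motor that separates the spindle poles, was at 40.4, 33 and 18.5 RPKM in the dorsal midbrain, 13.4, 13.6 and 22.1 in the alar plate, 13.4, 8.48 and 8.27 in the ventral midbrain, 19.2, 4.28 and 5.26 in the forebrain, and at 10.9, 5.92 and 6.36 in the hindbrain. Dorsal midbrain 3 was lower than alar plate 3 and forebrain 1 there. The difference of Kif11 was 1.48 (SE 0.35), with a limma adjusted p of 0.00815. Kif20a, a motor of the central spindle needed for cytokinesis, was at 32.2, 29.2 and 16.4 RPKM in the dorsal midbrain, 15.8, 15.6 and 23.8 in the alar plate, 13.8, 10.9 and 10.7 in the ventral midbrain, 17.3, 7.7 and 7.49 in the forebrain, and at 13.5, 9.34 and 9.56 in the hindbrain. It had the smallest difference of the kinesins, 0.96 (SE 0.24), with a limma adjusted p of 0.0104. The ratio of its highest to lowest library was 4.3. Kif20b, Kif23 and Kif4 were the kinesins whose dorsal midbrain libraries all exceeded the other 12, with differences of 1.17, 1.32 and 1.48. Kif15, Kif18a and Kif2c had differences of 1.47, 1.22 and 1.43.

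The 5 spindle microtubule proteins were all called, with differences from 1.28 to 1.45. Tpx2, which starts microtubule growth near chromosomes and activates Aurora A, was at 44.9, 41.4 and 21.2 RPKM in the dorsal midbrain, 17.8, 16 and 28.4 in the alar plate, 15.8, 10.1 and 10.9 in the ventral midbrain, 21.5, 5.12 and 6.55 in the forebrain, and at 13.1, 7.99 and 8.52 in the hindbrain. Dorsal midbrain 1 and 2 were the highest libraries and dorsal midbrain 3 was below alar plate 3 and forebrain 1. Prc1, which bundles the microtubules of the spindle midzone, was at 51.3, 46.4 and 23.9 RPKM in the dorsal midbrain, 20.3, 19 and 26 in the alar plate, 19.9, 12.7 and 12.7 in the ventral midbrain, 22.3, 6.57 and 8.66 in the forebrain, and at 17.2, 9.27 and 10 in the hindbrain. Alar plate 3 exceeded dorsal midbrain 3 by a small margin. Aspm, a spindle pole protein whose loss causes microcephaly, was at 16.2, 13.1 and 7.37 RPKM in the dorsal midbrain, 6.75, 5.96 and 3.97 in the alar plate, 5.86, 4.29 and 4 in the ventral midbrain, 6.69, 2.03 and 2.26 in the forebrain, and at 5.1, 3.08 and 3.37 in the hindbrain. Here alar plate 3 was lower than alar plate 1 and 2, and the dorsal midbrain libraries exceeded the other 12. The difference of Aspm was 1.28 (SE 0.27), with a limma adjusted p of 0.00503. Nusap1 and Hmmr, which bind spindle microtubules, had differences of 1.45 and 1.29.

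The 6 genes of chromosome structure were all called and hold both the largest and the smallest difference among the members called. Top2a, the topoisomerase that untangles sister chromatids, was at 145, 125 and 62.8 RPKM in the dorsal midbrain, 49.7, 46.2 and 62.7 in the alar plate, 39.2, 24.5 and 24.7 in the ventral midbrain, 63.6, 13.1 and 16.5 in the forebrain, and at 36.4, 18.6 and 21 in the hindbrain. Its difference was 1.73 (SE 0.38), with a limma adjusted p of 0.00583. Forebrain 1 and alar plate 3 lay within 1 RPKM of dorsal midbrain 3. Mki67, the gene of the proliferation antigen Ki-67, which coats mitotic chromosomes, was at 75.8, 63.2 and 33.6 RPKM in the dorsal midbrain, 26.6, 23.5 and 17.2 in the alar plate, 25, 15.2 and 16.6 in the ventral midbrain, 32.5, 7.46 and 7.84 in the forebrain, and at 21.6, 11.4 and 13.5 in the hindbrain. All 3 dorsal midbrain libraries exceeded the other 12, dorsal midbrain 3 and forebrain 1 being close, and alar plate 3 was the lowest of its region. The difference of Mki67 was 1.65 (SE 0.37), with a limma adjusted p of 0.00599. Ncapd2, a subunit of condensin I, was at 86.6, 80 and 50.3 RPKM in the dorsal midbrain, 48.7, 49.4 and 51.8 in the alar plate, 39, 31.3 and 29.9 in the ventral midbrain, 57, 28.2 and 29.3 in the forebrain, and at 40.3, 29.9 and 30.1 in the hindbrain. It had the smallest difference of the members called, 0.89 (SE 0.20), with a limma adjusted p of 0.0061, and a ratio of the highest to the lowest library of 3.07. The condensin core subunits Smc2 and Smc4 and the condensin I subunit Ncapg had differences of 1.02, 1.36 and 1.27.

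The 3 cytokinesis genes were all called, with a median of 1.22. Ect2, the exchange factor that switches on RhoA at the cleavage furrow, was at 27.7, 23.9 and 13.2 RPKM in the dorsal midbrain, 10.4, 9.38 and 16.3 in the alar plate, 9.36, 6.21 and 5.86 in the ventral midbrain, 12.8, 3.46 and 3.73 in the forebrain, and at 7.87, 4.74 and 5.06 in the hindbrain. Its difference was 1.40 (SE 0.32), with a limma adjusted p of 0.00634. Racgap1, which forms the centralspindlin complex with Kif23 and recruits Ect2, was at 81, 76.1 and 46.2 RPKM in the dorsal midbrain, 46.1, 39.4 and 52.5 in the alar plate, 29.4, 24.7 and 23.2 in the ventral midbrain, 43.3, 22.3 and 18.7 in the forebrain, and at 39.7, 31.4 and 27.2 in the hindbrain. Here the hindbrain mean, 32.8 RPKM, was above that of the ventral midbrain, 25.8, and the forebrain, 28.1, as was also the case for Bub3 and Kif18a. Racgap1 had a difference of 1.03 (SE 0.22), with a limma adjusted p of 0.0049. Anln, the furrow scaffold anillin, had a difference of 1.22.

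The spread inside a region ran the same way for nearly all members. The mean of dorsal midbrain 1 and 2 exceeded dorsal midbrain 3 for 46 of 46 members, with a median ratio of 2.01 and a range from 1.34 for Bub3 to 2.38 for Aurkb. Forebrain 1 exceeded the mean of forebrain 2 and 3 for 46 of 46, with a median ratio of 3.2, from 1.11 for Bub3 to 4.6 for Spc25. Ventral midbrain 1 was above ventral midbrain 2 for 46 of 46 members (median ratio 1.51) and above ventral midbrain 3 for 46 of 46 (1.5). Hindbrain 1 was above hindbrain 2 (median ratio 1.76) and above hindbrain 3 (1.64) for 46 of 46. Pairs that agreed more closely were alar plate 1 and 2 (median ratio 1.07), dorsal midbrain 1 and 2 (1.11), ventral midbrain 2 and 3 (1.02) and hindbrain 2 and 3 (0.933). Members therefore varied together: the Pearson correlation of log2(RPKM + 1) of a member with the mean of the other members over 15 libraries had a median of 0.99. Without alar plate 3 it was at least 0.95 for 44 of 46 members, and lowest for Bub3 at 0.78. These correlations rest on points that share their libraries and depth, and are given as a description.

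Alar plate 3 differed from alar plate 1 and 2 by a trend with gene length. The median RPKM of genes in the lowest quartile of length was 2.93 times that of the highest quartile in alar plate 3, against 1.06 to 1.26 in the other 14 libraries. Its RPKM values summed to 489420, against 374280 to 390992. Lengths here are those of the authors' gene models, found from the size of 1 read and scaled to the annotation's transcripts. The scaled length lay within 10% of the longest annotated transcript for 53.3% of genes with recovered reads. Lengths in kb are therefore approximate. Over 13742 genes with a length, the Spearman correlation of length with the difference of alar plate 3 from the mean of alar plate 1 and 2 was -0.62, and over the 46 members it was -0.83. Alar plate 3 exceeded that mean for 41 members and was below it for 5, with a median ratio of 1.63, from 0.625 for Aspm to 3.35 for Spc25. The 2 members under 1.5 kb, Ube2c and Cenpa, had a median difference of 1.57 on the log2(RPKM + 1) scale, where all 2510 genes of that length had 0.63. The 13 members of 1.5 to 2.5 kb had 1.16, against 0.29 for all genes. The 15 members of 2.5 to 4 kb had 0.55, against -0.05, and the 12 of 4 to 6 kb had 0.46, against -0.34. The 4 members over 6 kb, Cenpe, Cenpf, Aspm and Mki67, had -0.37, against -0.76. In each of these 5 length bins the median of the members stood above that of all genes. After a smooth curve of difference against length was subtracted from each library, alar plate 3 was above alar plate 1 and 2 for 46 of 46 members, with a median difference of 0.84, and the correlation with length fell to -0.38 over the members and 0.03 over all genes. With the trend removed, each of the 46 members kept its call, or lack of one, in the comparison of the dorsal midbrain with the other 4 regions.

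**Figure D5:**
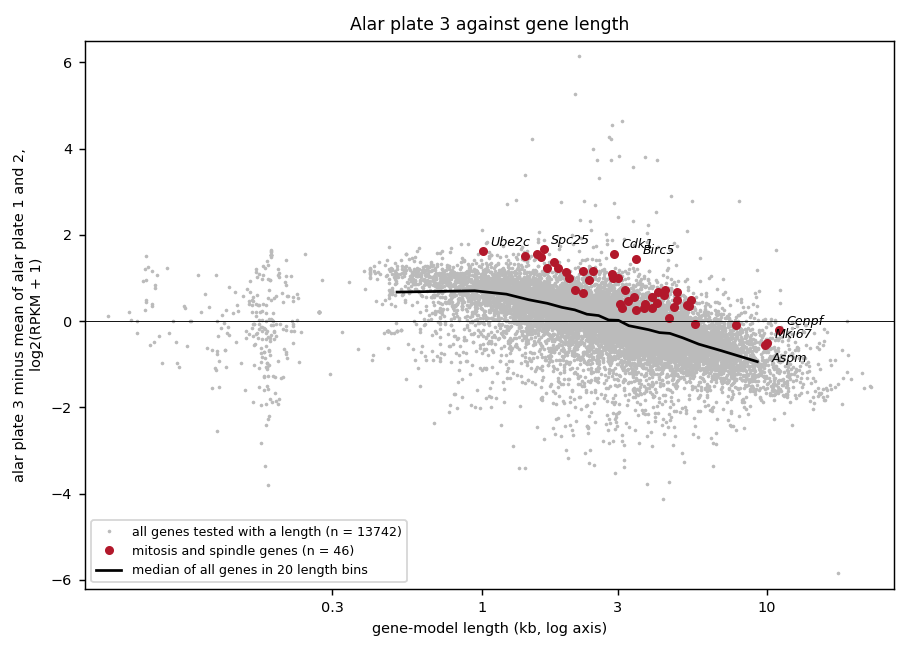
Difference of alar plate 3 from the mean of alar plate 1 and 2 on the log2(RPKM + 1) scale, against gene-model length in kilobases on a log axis, for 13742 genes in grey and the 46 members in red, with a line at the median of all genes in 20 bins of length. Members lie above the line at each length, while the 3 longest, Cenpf, Mki67 and Aspm, lie below 0.

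Other genes of the cell cycle were taken from lists that do not overlap with the 46 members. Of 46 further mitosis genes tested, 44 were called higher in the dorsal midbrain than in the other 4 regions and none lower, with a median difference of 1.20. Ckap5, a microtubule polymerase, had a difference of 0.40, the phosphatase gene Cdc25b, whose product activates CDK1, 1.12, and Cks2, a CDK-binding protein, 1.28. Of 32 genes of DNA replication and S phase, 30 were called higher and none lower, with a median of 1.11. Pcna, the sliding clamp of DNA polymerases, was at 161, 138 and 73 RPKM in the dorsal midbrain and at 34 to 159 in the other libraries, with alar plate 3 at 159. Rrm2, a subunit of ribonucleotide reductase, had a difference of 1.59, and the helicase subunit Mcm7 was also called, at 77.8, 73.1 and 42 RPKM in the dorsal midbrain and 22.3 to 50.6 in the other libraries. Of 13 genes for G1 cyclins, their kinases and CDK inhibitors, 7 were called higher and none lower, with a median of 0.64. Ccnd1, the gene of cyclin D1, was at 284, 298 and 51.2 RPKM in the dorsal midbrain, so that dorsal midbrain 3 stood apart more than for any member, and at 80.1, 88.1 and 100 in the alar plate. Cdk4 and Cdkn1c had differences of 0.54 and 0.95. Of 17 transcription factors and partners known to act on mitotic genes, 11 were called higher and none lower, with a median of 0.51. E2f4 and Nfyb were called, with differences of 0.51 and 0.27, and Nfya had a difference of 0.19 at a limma adjusted p of 0.255. The median of all genes tested was 0.05, and 18.2% of them were called higher.

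Markers of the cell types that a dissected piece of brain can hold moved along with the members in part. In this comparison 18.2% of all genes tested were called higher and 13.8% lower. Of 19 neuron genes, 10 were called lower in the dorsal midbrain and none higher, with a median of -0.54, and their summed RPKM ran from 2378 to 3255 there, against 3169 to 4327 in the other 12 libraries. Tubb3, a neuronal tubulin, had a difference of -0.08 at a limma adjusted p of 0.579, and Stmn2 and Gap43 were called lower, at -0.54 and -0.56. Within the dorsal midbrain the sum was highest in dorsal midbrain 3 (3255), and within the forebrain lowest in forebrain 1 (3512 against 4225 and 4327). Of 17 genes of neural progenitors and radial glia, 6 were called higher and 3 lower, with a median of 0.18. The share called lower was near that of all genes. Vim was called higher at 0.62, Fabp7 was called lower at -0.71, and Nes had a difference of 0.09. Their sum was 1599 to 1700 in the dorsal midbrain and 1801 to 2016 in the ventral midbrain, where the members were lower. It was 1169 to 1416 in the forebrain and 1573 to 2208 in the hindbrain, where the members were also lower by region mean. In alar plate 1, 2 and 3 it was 1267, 1178 and 2016. The part of the makeup of the tissue in the levels of the members was not tested.

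Among non-neural markers, 8 of 10 genes of meninges and mesenchyme were called higher in the dorsal midbrain and none lower, with a median of 1.48. Their sum was 70.8 to 132 RPKM in the dorsal midbrain and 4.86 to 20.2 in the ventral midbrain, forebrain and hindbrain. In alar plate 1, 2 and 3 it was 171, 9.40 and 56.4. The median RPKM of the members in these libraries was 13.4, 12.9 and 22.9. The collagen genes Col3a1, Col1a2 and Col1a1 had differences of 2.95, 2.87 and 3.19. Lum, the gene of the proteoglycan lumican, was listed at 0 in hindbrain 1, hindbrain 3 and each ventral midbrain library, and no gene of the list in the others. Of 11 endothelial genes, 6 were called higher and none lower, with a median of 0.31 and sums of 63.6 to 88.2 in the dorsal midbrain against 48.5 to 79.1 in the other libraries. Kdr and Cdh5 were called, at 0.50 and 0.69, and Cldn5 had a difference of -0.04. Of 7 erythroid genes, 1 was called higher, a share below the 18.2% of all genes tested, with a median of 0.49. Over the 11 erythroid genes found by symbol, the summed RPKM was highest in alar plate 3 (3277) and dorsal midbrain 2 (2714). The median of the same genes was 6.21 RPKM in alar plate 3, against 7.15 and 7.92 in dorsal midbrain 1 and 2. Alar plate 3 carried the trend with gene length. The globin genes Hbb-y, Hbb-b1 and Hbb-b2 had differences of 0.49, 0.44 and 0.44, and were not called. Hbb-b1 and Hbb-b2 are near-identical copies, so their separate values are uncertain. Of 8 genes of microglia and macrophages, 1 was called higher, also a share below that of all genes. Their median was 0.29, with sums of 24.3 to 26.9 in the dorsal midbrain. C1qb, C1qc and Csf1r were not called, at 0.32, 0.28 and 0.30. The part of these cells in the levels of the members was not tested.

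The genes most like the members outside them were Ncaph (Pearson r 0.996), Gtse1 (0.995), Cep55 (0.994), Uhrf1 (0.993) and Skp2 (0.993), by the correlation of log2(RPKM + 1) with the mean of the members over 15 libraries. Ncaph encodes a condensin I subunit, Gtse1 a microtubule-binding protein, Cep55 a midbody protein, Uhrf1 a partner of the maintenance DNA methyltransferase and Skp2 a subunit of an SCF ubiquitin ligase. Ncaph ranged from 3.96 to 30.5 RPKM and Skp2 from 3.45 to 13. The order of these 5 genes is set by differences in r of a few thousandths, and the points share libraries and depth.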

How the data were processed

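The authors deposited RPKM values (reads scaled to gene-model length and mapped reads) for 24264 genes and 15 libraries, 3 per region. Per the submitters' processing notes, reads were aligned with Bowtie to mm9. Of annotation, counting, strand and filters the sources used here give no account. Genes that overlap others or have near-identical copies are uncertain for that reason.

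RPKM values are whole multiples of the value of 1 read, and whole reads were recovered (tolerance 0.02 reads for small values, at most 0.15) for 16604 of 16612 genes above 0 in at least 10 libraries (99.95%), the 46 members included. They gave the depth and the length of each gene model, which was scaled to the GENCODE annotation. The steps were checked on simulated data.

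Genes with at least 1 RPKM in at least 3 libraries were tested with limma 3.58.1 (R 4.3.3), with a variance trend, on log2(RPKM + 1), in one fit of the 5 regions, two-sided. Adding the pseudocount of 1 understates differences of low genes. Adjustment of p-values (Benjamini-Hochberg) was over the 13745 genes of a comparison, with calls under 0.05. Each comparison was repeated with another pseudocount, other filters, other scalings, the length trend removed, the replicate number as a block, and libraries left out.

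The members, role groups and other lists were chosen with earlier results of these data known. Values in every library are given for Mki67, Top2a, the 2 best-expressed members of each role, the 3 largest and 3 smallest dorsal midbrain differences, members not passing the F-test, and the 3 highest and 3 lowest ratios of alar plate 3 to alar plate 1 and 2. Other lists are represented by their 3 best-expressed genes. Promoters were searched in RefSeq windows of build GRCm38.p6 and joined by symbol.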

Additional observations from a re-analysis of the deposited data

How the results depend on the processing

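In the comparison of the dorsal midbrain with the other 4 regions, the differences of all 46 members stayed above 0 under every alternative, and none of the results reversed. Against the alar plate, the difference of Bub3 (0.08) was -0.01 without dorsal midbrain 1, -0.06 without alar plate 1 and -0.02 without alar plate 2. Leaving out each library in turn gave 5 to 46 members called for the dorsal midbrain against the other 4 regions. Of all genes, 4.30% to 30.8% were called higher there. Against the ventral midbrain it gave 2 to 45 (4.37% to 25.1% of all genes) and against the forebrain 3 to 46 (3.76% to 29.5%). Against the hindbrain it gave 24 to 45 (7.64% to 29.8%). Against the alar plate it gave 0 to 3, with 2 without dorsal midbrain 3 (5.16%) and 3 without forebrain 1 (2.62%). In the F-test it gave 2 to 45 (17.2% to 56.7%). For single regions against the rest the range was 0 to 0 for the alar plate. There 0.614% to 5.12% of all genes were called higher and 2.22% to 7.74% lower. For the hindbrain it was also 0 to 0, where 1.61% to 7.72% of all genes were called higher and 0.708% to 6.92% lower. The range was 0 to 1 lower for the ventral midbrain, where 1.13% to 8.70% of all genes were called lower. For the forebrain it was 0 to 37 lower (0.437% to 5.65% of all genes). With alar plate 3, dorsal midbrain 3 and forebrain 1 left out together, 46 members were called higher against the alar plate (21.5% of all genes). In that setting 46 were called lower in the forebrain (24.8%), 41 in the hindbrain (19.4%) and 7 in the ventral midbrain (17.5%). The 7 are a smaller share than that of all genes. The libraries left out stand apart from the rest of their regions in these genes too, so the choice itself favours the calls. In a fit of dorsal midbrain and forebrain alone 12 members were called higher, where 1459 of 12982 genes were (11.2%). The median over the members was 1.69, as in the fit of all regions. The cause was not tested. The other alternatives (pseudocount, filters, scalings, length trend) kept each count within 1.5 times of that given above. The regions share replicate numbers. After the mean of its region was subtracted from each gene, same-numbered libraries of different regions correlated at -0.18 to 0.40. Not all of these were over 0.1, so the numbers were not taken to pair the libraries, though a pairing is not excluded. As a hint from the data, 10 of 15 libraries correlated best on these values with one of their own number. Also, library 1 was above libraries 2 and 3 for 46 of 46 members in the ventral midbrain, forebrain and hindbrain. The fit with the replicate number as a block called 4 members higher against the alar plate, where 3.99% of all genes were. It called 1 lower in the ventral midbrain (3.36% of all genes) and 1 lower in the forebrain (2.99%). In the ventral midbrain and forebrain the share of members was below that of all genes. No other count moved by over 1.5 times. Members had at least 39 reads in each library.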
